A study of Mus musculus with 5 samples.

Results

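The peaks described here are the regions bound by c-Jun in MS5 cells under TGF-β1, as listed for a library without pioglitazone and for a library with it. They were taken as every row of the 2 c-Jun lists: 17044 peaks without pioglitazone and 13325 with it, 30369 of the 83829 peaks of the series. MS5 is an established mouse bone marrow stromal cell line, used at passage 11. TGF-β1 was given to all cells, those without pioglitazone included, at a dose of 10 ng/mL over 5 h, and pioglitazone at 20 ng/mL. The lists therefore compare TGF-β1 alone with TGF-β1 plus pioglitazone, and no library of cells without TGF-β1 was analysed here. The other 3 samples of the series are a p300 library for each treatment and a pooled input. Each combination of antibody and treatment is a single library from 1 cell line, so every difference between treatments is a difference between 2 libraries with no replicate check, and no p-value is given.

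c-Jun is a subunit of AP-1, a dimeric transcription factor formed by Jun and Fos family proteins that binds the short palindrome TGANTCA in enhancers and promoters. AP-1 is activated by growth factors and cytokines, acts together with SMAD proteins at many genes that respond to TGF-β, and in stromal cells takes part in the induction of matrix and inflammatory genes. Pioglitazone is a thiazolidinedione that activates PPARγ, a nuclear receptor best known for driving fat cell differentiation, which can also repress genes that AP-1 induces. p300, the second protein profiled, is a histone acetyltransferase recruited by AP-1 and other factors to active enhancers. The series is about myelofibrosis, a scarring of the bone marrow, and how it resolves. The peak positions are mm9. No mm9 sequence or gene annotation was used here, so peaks are named by position and not by gene, and no motif was searched.

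c-Jun was listed at 22586 distinct sites over both treatments. Of these, 7783 sites were in both lists, each as 1 peak of one list overlapping 1 peak of the other by at least 1 bp. A further 9261 peaks were listed without pioglitazone only, here called lost, which is 54.3% of that list (95% interval 53.6 to 55.1). The remaining 5542 were listed with pioglitazone only, here called gained, which is 41.6% of that list (40.8 to 42.4). In length, the list of treated cells came to 78.2% of the other. Intervals are exact binomial ones for shares. All intervals cover counting error only and treat peaks as independent. The number of reads behind each peak is unknown.

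Sites in both lists were placed precisely. Their peak centres lay a median of 43 bp apart, with quartiles of 19 and 78 bp, in lists whose peaks are 249 bp wide without and 235 bp wide with pioglitazone. Of the 7783 shared sites, 4420, or 56.8%, had centres within 50 bp of each other, and 6473, or 83.2%, within 100 bp. The offset was smallest at the head of the list: 28 bp at the median in the first 10% of rows without pioglitazone and 64 bp in the last 10%.

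Most lost and gained peaks had no near counterpart in the other list. A centre of the other list lay more than 500 bp away for 8858 of 9261 lost peaks, 95.6% (95.2 to 96.1), and for 5135 of 5542 gained peaks, 92.7% (91.9 to 93.3). At more than 10 kb the shares were 71.4% (70.4 to 72.3) of lost and 64.2% (63.0 to 65.5) of gained peaks. At more than 50 kb they were 31.6% (30.6 to 32.5) and 23.9% (22.8 to 25.1). Within its own list, 69.7% of all c-Jun peaks without pioglitazone and 75.7% with it had no other c-Jun centre within 10 kb. Spacing of more than 10 kb was thus common among c-Jun peaks in general and not particular to lost or gained ones. The median distance to the nearest c-Jun peak of the other treatment was 25175 bp for a lost peak. The remaining 403 lost peaks had a centre of the list with pioglitazone within 500 bp, and for 392 of them that neighbour was itself a gained peak. These 392 pairs are c-Jun positions that stood side by side without touching, and each is counted above as a loss and a gain.

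Row order stands in for peak strength here, because the deposited score is 1 for every peak. Lost and gained peaks were few at the head of each list and common at its end. In the first 10% of the list without pioglitazone, 158 of 1705 peaks were lost, and 94 of these, or 5.51% (4.48 to 6.70) of the step, had no c-Jun peak with pioglitazone within 10 kb. In the middle of the list, between 40% and 50%, 53.7% (51.3 to 56.1) were lost, and 38.3% (36.0 to 40.7) were lost with no such peak within 10 kb. In the last 10% that second share reached 66.0% (63.7 to 68.3). Gained peaks with no c-Jun peak without pioglitazone within 10 kb rose from 2.85% (2.03 to 3.89) of the first 10% to 47.4% (44.7 to 50.1) of the last. At each of the 10 steps the lost share of the list without pioglitazone was above the gained share of the list with it. Over the whole lists that order is fixed by their lengths, 17044 and 13325, since both shares count the same 7783 shared sites. The 10 steps are therefore not separate support for a net loss.

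**Figure D1:**
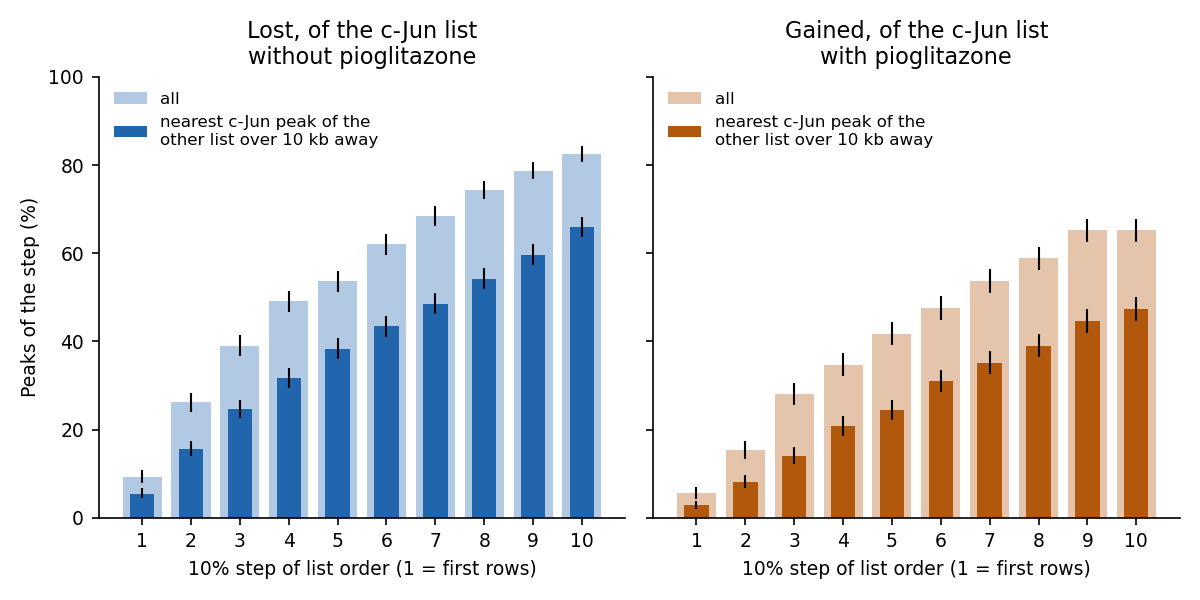
Share of peaks lost (left) or gained (right) in each 10% step of list order, in percent of the step; wide bars are all such peaks, narrow bars those with no c-Jun centre of the other list within 10 kb, and lines are exact 95% intervals. Lost peaks with no such neighbour go from 5.51% of the first step to 66.0% of the last, and gained ones from 2.85% to 47.4%.

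The heads of the lists held nearly the same sites. All of the first 100 rows of each list were in the other list. Of the first 200 rows without pioglitazone, 199 were in the list with pioglitazone, 189 of them among its first 200 rows, and none stood below row 306. The reverse was as close: every one of the first 200 rows with pioglitazone was in the other list, at row 324 or above. Beyond that head the lists parted. Of the first 500 rows of either list, 383 matched within the first 500 of the other, 76.6% (72.6 to 80.2). The figure was 67.2% (64.2 to 70.1) for the first 1000, 60.1% (58.8 to 61.5) for the first 5000 and 55.8% (54.8 to 56.8) for the first 10000.

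This head differed from the following rows in p300, a measure the c-Jun lists do not contain. In rows 1 to 100 without pioglitazone, 53 of 100 c-Jun peaks overlapped p300 of the same treatment, and in rows 101 to 200 it was 44 of 100, 44.0% (34.1 to 54.3). From row 201 to 500 it was 253 of 300, 84.3% (79.7 to 88.3), and from row 1001 to 2000 it was 92.1% (90.3 to 93.7). With pioglitazone the shares were 52.0% (41.8 to 62.1), 44.0% (34.1 to 54.3), 75.7% (70.4 to 80.4) and 82.5% (80.0 to 84.8) in the same bands. Of the first 200 c-Jun peaks without pioglitazone, 73 overlapped p300 in neither treatment. The first 200 rows were therefore the bands that agreed best between treatments and had least p300 among the first 5000 rows. No source used here says whether regions of unusually high signal were left out of the lists, and the part of such regions in these rows was not tested. Their centre offsets were also the smallest, with medians of 10.5 and 17 bp in rows 1 to 100 and 101 to 200 without pioglitazone.

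**Figure D2:**
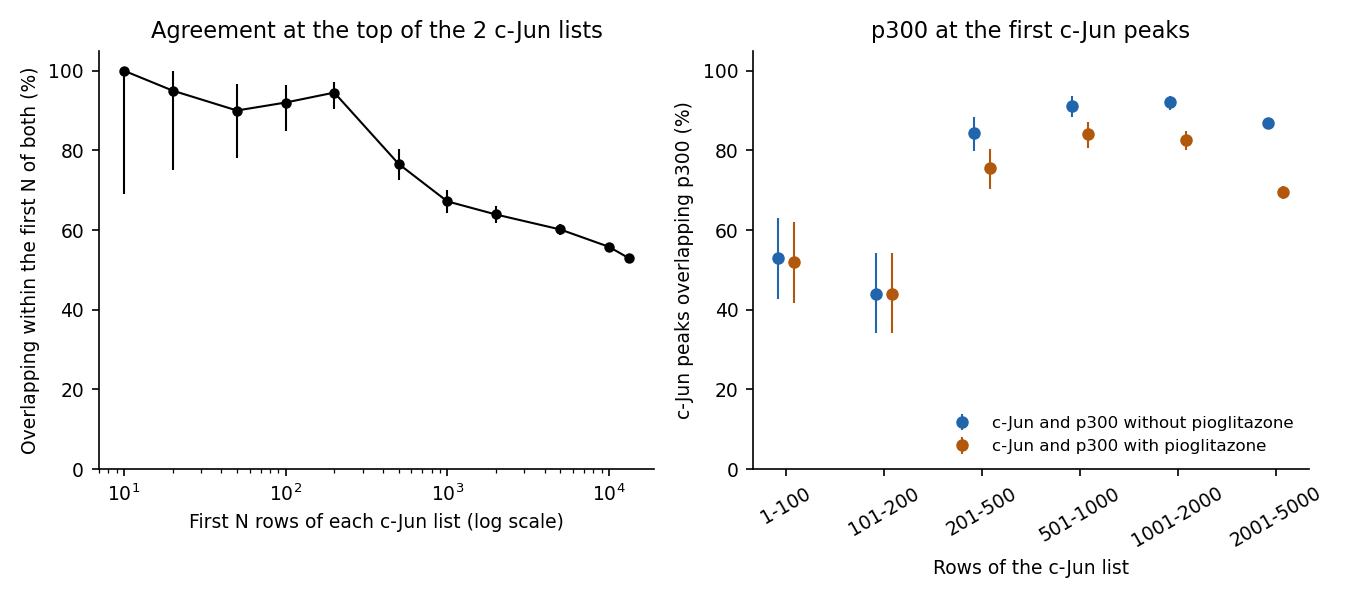
Left, percent of the first N rows of each c-Jun list (log axis) that overlap a peak among the first N of the other. Right, percent of c-Jun peaks in bands of rows that overlap p300 of the same treatment; points are shares and lines exact 95% intervals. Agreement is 94.5% at 200 rows and 76.6% at 500, and p300 overlap without pioglitazone goes from 44.0% in rows 101 to 200 to 84.3% in rows 201 to 500.

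Shared sites kept their place near the head and spread further down. Since the lists differ in length, positions are given in percent of each list, and a move is a difference in that position, not a measured change in binding. Of 1547 shared sites in the first 10% of the list without pioglitazone, 972 were in the first 10% with pioglitazone as well, and 23 had gone to the last 50%. Of 1259 shared sites in the first 10% with pioglitazone, 9 were in the last 50% without it. Over all 7783 shared sites the position, in percent of each list, moved towards the end with pioglitazone by a median of 2.30 points, with quartiles of -6.74 and 16.3. It moved more than 10 points towards the end at 2636 sites, 33.9%, and more than 10 towards the start at 1568, 20.1%. Counted among the shared peaks only, the figures were 27.6% and 28.0%. That scale sets the mean move to 0 by construction, so its balance does not bear on whether sites moved towards the end, and the excess above depends on the unmatched rows of each list.

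**Figure D3:**
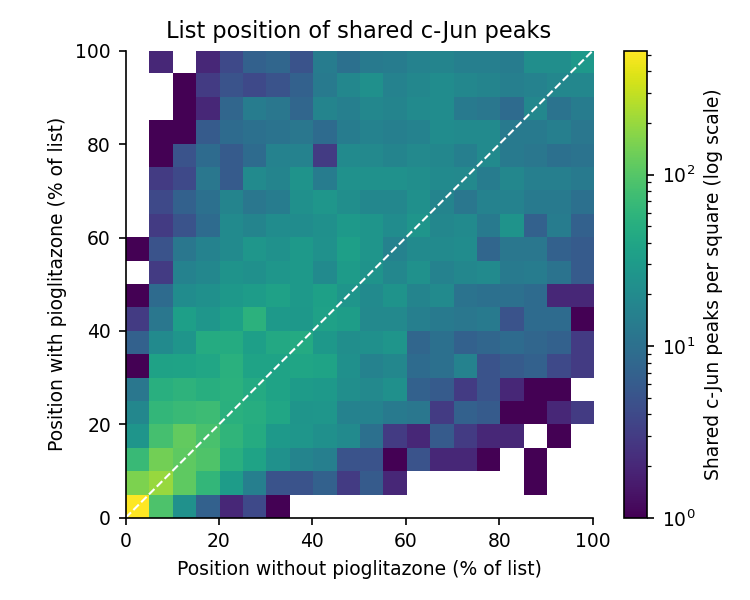
Position of the 7783 shared c-Jun peaks in the list without pioglitazone (horizontal) and with it (vertical), in percent of each list; colour is the number of peaks per square of 5 by 5 points on a log scale, white squares hold none and the dashed line marks equal positions. The densest square is at the head of both lists, and 2636 peaks lie more than 10 points above the line against 1568 below it.

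The largest single moves among sites that were in the first 10% of at least 1 list were as follows. The c-Jun peak at chromosome 13, 37390794 to 37391042, stood at row 1580 without and row 13044 with pioglitazone, from 9.27% to 97.9% of the list. The one at chromosome 19, 23068432 to 23068680, went from row 1511 to row 12759. A further 3 peaks moved from the first 10% to rows 9942 to 11070. They lay at 64195818 to 64196066 of chromosome 14, 94450535 to 94450783 of chromosome 16 and 33678030 to 33678278 of chromosome 13. All 5 overlapped a p300 peak in both treatments, at rows 5023 to 14244 of the p300 list without pioglitazone and 6259 to 16995 with it. p300 thus stayed listed at these sites. In percent of its own lists it also stood further down with pioglitazone at all 5, for example at 33.4% and 69.9% at the first site of chromosome 13 and at 16.0% and 28.5% at the second.

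Moves in the other direction were shorter apart from 1. The c-Jun peak at chromosome 3, 21598539 to 21598787, went from row 14955 without pioglitazone to row 1273 with it, from 87.7% to 9.55% of the list. It overlapped p300 peaks at rows 1100 without and 1421 with pioglitazone. The peak at chromosome 1, 128652314 to 128652562, went from row 10205 to row 1031, and p300 was at rows 1860 and 3416. On chromosome 7 a pair of peaks, 31148103 to 31148351 and 31962204 to 31962452, went from rows 9573 and 9196 to rows 982 and 1137 and overlapped p300 in neither treatment. The fifth, at chromosome 12 (73088195 to 73088443), went from row 9295 to row 1209, with p300 in both treatments. These sites were picked for their moves, and with 1 library each no move was tested.

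Lost sites with no c-Jun peak of the list with pioglitazone within 10 kb were first met at row 114 without pioglitazone, on chromosome 16 (57391519 to 57391767). It overlapped p300 in neither treatment. The next were on chromosome 10 (79626616 to 79626864, row 283), where p300 peaks of both treatments lay 2045 and 2037 bp away, and on chromosome 8 (19871574 to 19871822, row 341), where the nearest p300 peak without pioglitazone was 148693 bp away. At chromosome 2, 167400375 to 167400623 (row 343), and chromosome 9, 34375880 to 34376128 (row 347), p300 was present in both treatments with its centre 4 to 13 bp from that of c-Jun. There p300 stood at row 196 without and row 425 with pioglitazone on chromosome 2, and at rows 532 and 1647 on chromosome 9. These last 2 sites thus lost c-Jun from the list and kept p300 near the head of its own. Among all 94 such lost sites of the first 10%, 66 overlapped p300 in both treatments and 10 in neither. Of the 1547 retained peaks in that step, 1218, or 78.7%, overlapped p300 in both treatments and 175, or 11.3%, in neither. Keeping p300 was thus not particular to these lost sites. Chromosome 10 held 12 of the 94 lost sites, 12.8%, close to its 12.0% of all c-Jun peaks in that step.

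Gained sites with no c-Jun peak of the list without pioglitazone within 10 kb began lower, at row 409 with pioglitazone, on chromosome 17 (28465400 to 28465634). It overlapped no p300 peak, although p300 centres lay 313 and 342 bp away without and with pioglitazone. Those at chromosome 10, 75167068 to 75167302 (row 635), 117147090 to 117147324 (row 636) and 128358957 to 128359191 (row 671), overlapped p300 without pioglitazone only, in neither treatment and in neither treatment. The fifth, on chromosome 19 (57014434 to 57014668, row 716), overlapped p300 in both, at rows 483 and 1022. Of the 38 gained sites of this kind in the first 10%, 13 overlapped p300 in both treatments and 17 in neither. Of the 1259 shared peaks in that step, 915, or 72.7%, overlapped p300 in both treatments and 187, or 14.9%, in neither. Chromosome 10 held 6 of the 38 gained sites, where it has 12.5% of all c-Jun peaks in that step.

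p300 separated the classes of c-Jun peak over the whole lists. Among the 7783 c-Jun peaks that were retained, p300 was listed in both treatments at 5532, 71.1% (70.1 to 72.1), and in neither at 830, 10.7% (9.99 to 11.4). Among the 9261 lost peaks it was in both at 34.5% (33.5 to 35.4) and in neither at 38.9% (37.9 to 39.9). Among the 5542 gained peaks it was in both at 22.4% (21.4 to 23.6) and in neither at 55.9% (54.6 to 57.2). Gained c-Jun peaks were thus the class with least p300. This held for gained sites with no c-Jun peak without pioglitazone within 10 kb, of which 58.9% (57.2 to 60.5) had p300 in neither treatment.

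Lost and gained peaks stand lower in their lists, and p300 overlap falls along the list, so the classes were also compared within 10% steps. Without pioglitazone, p300 of the same treatment was at 55.8% of lost and 85.6% of retained c-Jun peaks, a difference of -29.8 percentage points (-31.1 to -28.5). Within steps it was -22.0 (-23.5 to -20.6). With pioglitazone, p300 of the same treatment was at 28.8% of gained and 74.6% of shared peaks, a difference of -45.8 (-47.3 to -44.3), and -39.6 (-41.3 to -37.9) within steps. In the first 10% of rows, p300 without pioglitazone was at 83.5% (76.8 to 89.0) of lost and 85.3% (83.4 to 87.0) of retained peaks. p300 with pioglitazone was at 74.1% (66.5 to 80.7) and 82.2% (80.2 to 84.0) of the same peaks. p300 without pioglitazone only was at 12.7% (7.91 to 18.9) and 6.53% (5.35 to 7.88). Rows 1 to 200 lie in this step, 199 of them retained, and p300 without pioglitazone was at 53 and 44 of each 100. They lower the retained share of the step, and the comparison without them was not made. Gained and shared peaks of the first 10% with pioglitazone had p300 of that treatment at 48.6% (36.9 to 60.6) and 77.4% (75.0 to 79.7).

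**Figure D4:**
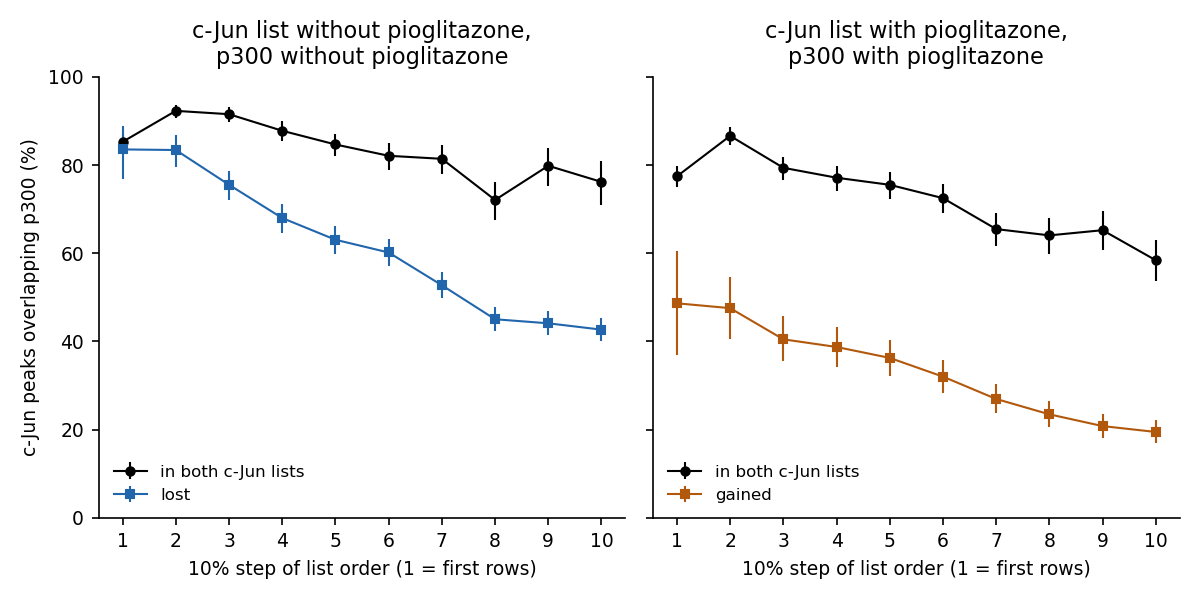
Percent of c-Jun peaks that overlap p300 of the same treatment, by 10% step of list order, for peaks in both c-Jun lists (circles) and for lost (left) or gained (right) peaks (squares), with exact 95% intervals. Lost and retained peaks have overlapping intervals in the first step, at 83.5% and 85.3%, and stand apart from the second step on. On the left, the first step includes rows 1 to 200, 199 of them retained, with p300 at 53 and 44 of each 100. Gained peaks are below shared peaks from the first step, at 48.6% and 77.4%.

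Where p300 was listed in a single treatment, the treatment was mostly the one without pioglitazone, in every class. That p300 list is the longer one, with 31466 peaks against 21994. p300 was listed without pioglitazone only at 21.3% (20.5 to 22.2) of lost and 14.5% (13.7 to 15.3) of retained c-Jun peaks, a difference of 3.19 points (1.86 to 4.51) within steps. It was listed with pioglitazone only at 6.33% (5.71 to 7.01) of gained and 3.85% (3.44 to 4.31) of shared peaks, 2.75 points higher within steps (1.91 to 3.60). Lost peaks were also above retained ones for p300 with pioglitazone only, at 5.30% (4.85 to 5.78) against 3.75% (3.34 to 4.20), or 1.19 points within steps (0.47 to 1.90). Lost c-Jun peaks thus had more p300 listed in a single treatment of either kind. For p300 without pioglitazone only, gained and shared peaks stood at 15.3% and 14.7%, a difference of 0.56 points (-0.67 to 1.80) over the whole list and -2.21 (-3.61 to -0.81) within steps. c-Jun and p300 were both listed with pioglitazone only at 351 of 5542 gained peaks. At 848 gained peaks p300 was listed without pioglitazone only. Both were listed without pioglitazone only at 1975 of 9261 lost peaks. The share of all p300 peaks listed in a single treatment was not computed here, so these counts cannot be read as joint changes.

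Among shared sites, the list position of c-Jun also differed with p300. At sites that had p300 in both treatments the median move was 3.25 points towards the end, and 35.1% moved by more than 10 points that way. At the 1129 sites with p300 without pioglitazone only the median was 1.85 points. It was -0.0047 points at the 292 sites with p300 with pioglitazone only and 0.12 at the 830 sites with p300 in neither, where 25.9% moved more than 10 points towards the end and 25.3% towards the start. Sites of these kinds start from different places in the list. Within 10% steps of the list without pioglitazone, the median move was further towards the end where p300 was listed without pioglitazone only than where it was in both in 8 of 10 steps. It was less far where p300 was listed with pioglitazone only in 8 of 10 steps, some of which held as few as 9 such sites. Where p300 was in neither treatment, the median move was further towards the end than where it was in both in 4 of 10 steps. The whole-list contrast of 3.25 against 0.12 points thus did not keep its direction across the steps.

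c-Jun peaks mostly stood alone. With centres up to 10 kb apart joined, 11885 of the 17044 peaks without pioglitazone, 69.7%, had no neighbour, and 1387, 8.14%, lay in 427 clusters of 3 or more. With pioglitazone 75.7% had no neighbour and 5.16% lay in 216 such clusters. Of the peaks without pioglitazone, 45.2% (44.3 to 46.1) of those alone and 47.7% (45.1 to 50.4) of those in clusters of 3 or more were retained. Clustered peaks stood higher in the list, at a median of 43.1% against 52.5%. Within steps the retained share in clusters was lower by -2.47 points (-4.97 to 0.03), an interval that includes 0.

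Joining both c-Jun lists gave 17454 clusters, of which 3912 held at least 2 distinct sites. Of these 3912, 409 clusters, 10.5%, held retained sites only, 479, 12.2%, lost sites only and 165, 4.22%, gained sites only. Retained and lost sites without gained ones were in 999, 25.5%, and retained and gained sites without lost ones in 514, 13.1%. A further 252, 6.44%, held retained, lost and gained sites. In 1094, 28.0%, sites were lost and gained and none was retained. Lost and gained peaks within 500 bp of each other fall in the same cluster and are included. Over all 22586 sites, 7783 were retained, 9261 lost and 5542 gained. The share of mixed clusters that this mix alone would give was not computed. Of the 8 clusters with at least 10 c-Jun peaks over both lists, 5 are described. On chromosome 17 (29565182 to 29584539) there were 5 c-Jun peaks in each treatment, all retained. On chromosome 8 (129350299 to 129376356) all 5 were retained and 1 was gained. On chromosome 1 (156922086 to 156955843), with 5 peaks without and 6 with pioglitazone, 3 were retained, 2 lost and 3 gained, while p300 had 5 in each treatment. The cluster on chromosome 7 (54263602 to 54298351) kept 4 of 5 c-Jun peaks and gained 1, and its p300 peaks numbered 7 and 4. On chromosome 10 (21493449 to 21528278) 4 of 7 c-Jun peaks were lost and none was gained, with 6 p300 peaks in each treatment.

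Some clusters kept no c-Jun site: 6 such clusters had 4 lost peaks, and 18 had at least 3 gained peaks, and 5 of each are considered. On chromosome 12 (88223488 to 88240828) all 4 c-Jun peaks, from row 6163 to row 14776, were lost and none was gained, with 2 p300 peaks in each treatment. On chromosome 17 (35167181 to 35188996) 4 c-Jun peaks, the first at row 2437, were lost and 1 was gained, and p300 peaks numbered 4 and 2. The loss was also 4 peaks, with none retained, at 23769592 to 23789324 of chromosome 5, 90849085 to 90886288 of chromosome 16 and 20439884 to 20456138 of X, where 2, 1 and 1 were gained. In the other direction, chromosome 10 held a cluster of 3 gained peaks between 128358957 and 128368738, the first at row 671, and another between 120181227 and 120189323, the first at row 3850. Neither had a c-Jun peak without pioglitazone, and p300 peaks numbered 1 and 2 in each treatment. Gains of 3 peaks beside 1 loss were listed on chromosome 1 (175834569 to 175852966) and on chromosome 11 (98637111 to 98656278), with 2 p300 peaks in each treatment.

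The chromosomes differed in where their c-Jun peaks stood in the list, and did so alike in both treatments. The median position was 32.2% without and 31.7% with pioglitazone on chromosome 10, and 33.9% and 30.9% on chromosome 19. Chromosomes 6 and 17 followed, at 40.0% and 35.8% and at 40.8% and 42.1%. At the other end stood X, at 75.6% and 72.2%, chromosome 4, at 70.4% and 69.7%, and chromosome 12, at 66.2% and 62.1%. Of the c-Jun peaks of chromosome 10, 18.7% were in the first 10% of the list without pioglitazone and 19.3% in that with it, against 3.04% and 3.91% on chromosome 4. In the p300 lists chromosome 10 was at 38.8% and 37.3%, chromosome 4 at 62.0% and 64.5% and X at 71.7% and 73.0%.

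These positions bear on the retained shares. Chromosome 10 had a retained share 4.29 points above the other chromosomes over the whole list (1.23 to 7.35) and a difference of the opposite sign within 10% steps, -5.83 (-8.50 to -3.16). Chromosome 6 went from 0.31 (-2.84 to 3.45) to -5.97 (-8.75 to -3.18). Chromosome 13 stood above the others within steps, by 6.54 points (3.52 to 9.57), and chromosome 3 by 4.20 (1.28 to 7.11). Gained shares of these chromosomes ran the other way within steps. Chromosome 10 was 4.73 points above the others (1.69 to 7.77) and chromosome 6 4.14 above (0.93 to 7.34). Chromosome 13 differed by -6.83 (-10.3 to -3.36) and chromosome 3 by -3.63 (-6.96 to -0.30). Both shares count the same shared peaks, so they are not separate measures. Signs were not opposite everywhere: chromosome 9 was above for retained (3.65) and gained (1.35, -2.05 to 4.74), and 15, 16 and 18 were below for both. Chromosome 7 had the highest gained share over the whole list, 48.4% (44.9 to 52.0), and was 5.59 points above the others within steps (2.31 to 8.87). Peak numbers with pioglitazone ran from 67.6% of those without it on X to 84.1% on chromosome 9. Y, with 1 peak in each list, was left aside.

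**Figure D5:**
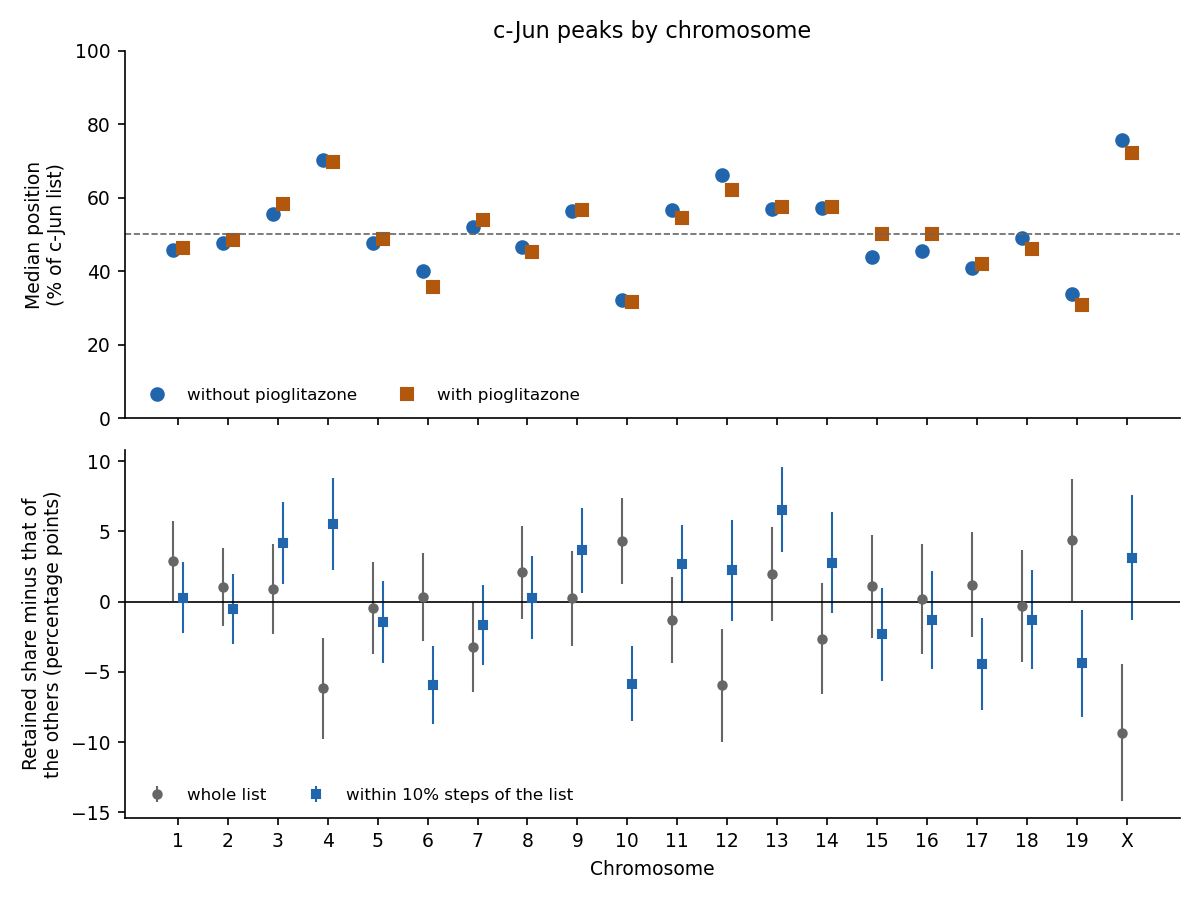
Top, median position of the c-Jun peaks of each chromosome, in percent of the list without (circles) and with (squares) pioglitazone, with the dashed line at 50%. Bottom, retained share of each chromosome minus that of the others, in percentage points with 95% intervals, over the whole list (circles) and within 10% steps (squares). Chromosomes 10 and 19 stand near the head and X and 4 near the end of both lists, and chromosome 10 is above the others over the whole list (4.29) and below them within steps (-5.83).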

How the data were processed

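c-Jun and p300 were profiled by ChIP-seq, 1 library per antibody and treatment. The build mm9 and the tools HOMER, SAMtools (1.9) and Bowtie2 (2.3.4.3) are named per the submitters' processing notes. What each tool did, its settings and any use of the input are not given in the sources. The authors deposited 1 peak list per library, with positions and a score that is 1 for every peak. No file states what the rows were sorted by, and depth is unknown, so differences in depth or enrichment between libraries can move the number of peaks. On chromosome 7, 60 c-Jun peaks without pioglitazone had positions past the end of the last GRCm38 gene in the table at hand, so that table, its promoter sequences and gene lists were not used.

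Peaks counted as shared at 1 bp of overlap. Overlaps were computed in Python (version 3.11.15; numpy 2.4.6, pandas 2.3.3, scipy 1.17.1) and equalled bedtools (version 2.31.1) in 24 of 24 pairwise counts. Differences within 10 steps of row order are Mantel-Haenszel weighted, and the functions were tested on simulated data. Named sites are the first 5 lost and gained peaks with no c-Jun peak of the other list within 10 kb, the 5 largest moves each way among shared sites in the first 10% of a list, and the 5 clusters with most c-Jun peaks, most lost and most gained with none retained. The row bands and chromosome positions were added after the lists were seen. Members, rules and lists were chosen with earlier results of these data known. Alternatives were other overlap rules, shortened lists, other joining distances and steps by the number in the peak name.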

Additional observations from a re-analysis of the deposited data

Results flagged for a closer look

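In 2 of the named clusters c-Jun peaks became more numerous and p300 peaks fewer. On chromosome 3, from 146113510 to 146137050, c-Jun went from 0 peaks without to 4 with pioglitazone, a change of 4, at rows 5439 to 11633, while p300 went from 2 to 0. On chromosome 8, from 129350299 to 129376356, c-Jun went from 5 to 6, a change of 1, while p300 went from 6 to 5. The whole p300 list is shorter with pioglitazone, 21994 peaks against 31466, so fewer p300 peaks is its general direction. The c-Jun list is shorter with pioglitazone too, 13325 against 17044. Each count comes from 1 library and the clusters were picked for their c-Jun peaks, so neither difference was tested.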

How the results depend on the processing

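The rule for overlap and the rows used moved most values; under these alternatives no difference within steps in p300 of the same treatment between lost and retained or gained and shared peaks changed sign. The cause of each move was not tested beyond how the alternative is built. The retained share of 45.7% became 40.2% with 50% overlap of both peaks, 38.0% with centres within 100 bp, 48.0% within 500 bp, 52.9% with lists of equal length, 51.2% with each list cut to its upper 50% and 64.5% for the first 50% of rows against the full other list. In the same order the gained share of 41.6% became 48.6%, 51.4%, 38.5%, 47.1%, 34.5% and 25.1%. Leaving out the 500 bp rule, under which it is fixed at 100%, the share of lost peaks more than 500 bp from the other list (95.6%) became 86.9%, 83.8%, 94.8%, 97.2% and 94.1%, and that of gained peaks (92.7%) 79.3%, 74.9%, 94.7%, 94.9% and 89.5%. The p300 difference of lost from retained peaks within steps (-22.0 points) became -24.2 with 50% overlap, -24.7 within 100 bp, -19.6 at equal length, -12.9 in the upper 50% and -16.1 in the first 50% of rows. That of gained from shared peaks (-39.6) became -36.4, -34.7, -37.7 and -33.1 under the first 4 of these. With steps by the number in the peak name, chosen after seeing the data, these differences were -19.3 and -36.6. The clustered-peak difference (-2.47) became -6.51 (-10.9 to -2.10) in the first 50% of rows, and its interval lay below 0 also at equal length, with centres joined at 25 kb and with steps by the peak name, but not under the other overlap rules, at 5 kb or in the upper 50%. Moves of more than 10 points became 27.6% towards the end and 28.0% towards the start on the scale of shared peaks only. The clustered-peak difference was 2.53 over the whole list, before steps. Within steps the retained-share difference changed sign on 12 of 20 chromosomes, among them 4 (5.51), 6 (-5.97), 10 (-5.83), 17 (-4.46), 19 (-4.40) and X (3.12). The comparisons by motif and promoter were not run. No paired analysis was possible because each group is 1 library. Depth is unknown, so a site missing from a list cannot be called unbound.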

Other observations

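The gained share over the whole list was 37.1% (32.4 to 41.9) on chromosome 19. It was 37.1% (33.9 to 40.4) for chromosome 10 and 46.6% (41.9 to 51.4) for chromosome 12. Chromosome 5 was 4.16 points above the others within steps (0.85 to 7.46) and chromosome 4 differed by -4.53 (-8.52 to -0.54).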
